A study of Homo sapiens with 12 samples.

Results

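Long-chain fatty acids that enter an intestinal absorptive cell are carried by small cytosolic binding proteins and activated to acyl-CoA by membrane synthetases. They are then esterified and packed into lipid droplets or chylomicrons. In the gut epithelium this machinery belongs to the differentiated cells of the villus and surface rather than to the crypt, where Wnt signalling through β-catenin and Tcf4 maintains proliferation. The 10 genes described here cover the binding step (FABP1, FABP2 and FABP5), the activation step (ACSL1, ACSL3, ACSL4 and ACSL5) and the droplet surface (CIDEB, CIDEC and PLIN2). They were taken as every probe set whose annotated symbol was exactly 1 of these names, which gave 15 of the 54675 probe sets on the array and covered 9 of the 10 genes. ACSL3 paired with no probe set and was not analysed here, and no probe set listed a member together with another gene. Of the 15 probe sets 12, from 8 genes, reached the filter, a geometric mean signal of 10.2 over the arrays, which is that of the middle probe set of the array, and were tested. The only FABP2 probe set, 1 of 3 for ACSL4 and 1 of 2 for PLIN2 lay below and are described by their values, with p-values only from a fit without a filter.

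The data are 12 Affymetrix U133 Plus 2.0 expression arrays of cells derived from the human colorectal carcinoma line Ls174T. In the derivative Ls174T-pTER-β-catenin, doxycycline switches on an shRNA (a short hairpin that silences its target) against β-catenin, and in Ls174T-L8 it switches on a dominant-negative Tcf4, written dnTcf4 below. Each line gave 3 arrays of untreated cells and 3 of cells kept in doxycycline, for 72 h in the shRNA line and 24 h in the dnTcf4 line. Line, construct and time of induction therefore change together, and what differs between the lines cannot be assigned to 1 of them. Doxycycline without a construct was not analysed here. Neither separate cultures for the arrays within a group nor the clonality of the lines is stated in the labels, so p-values measure the spread between arrays, which may be technical. Values are signals in arbitrary units on a linear scale, with the same trimmed mean on every array, and they were used without detection calls. They are not per length, so levels are compared between arrays and not between genes.

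Median signals of the arrays lay between 12.1 and 15.3, and correlations between arrays of a group between 0.958 and 0.969 across tested probe sets. CTNNB1, the gene of β-catenin, read between 3574.7 and 3961.4 on uninduced and between 132.1 and 173.0 on induced shRNA arrays at its brightest probe set, a 24.4-fold fall. TCF7L2, the gene of Tcf4, read between 88.7 and 142.0 before and between 811.1 and 1806.2 after induction of dnTcf4 at the probe set with the largest change, an 11.6-fold rise. Its other tested probe sets changed by 0.41 to 2.92 in log2 with dnTcf4. With the shRNA its tested probe sets changed by 0.48 to 0.74, and in each line some but not all of these changes were called. All 8 intestinal epithelial markers listed (among them CDX2, VIL1 and EPCAM) were above the filter. Their summed signal rose from between 15526 and 17236.1 to between 21193.2 and 23165.5 with the shRNA. With dnTcf4 it rose from between 21206.4 and 23611.6 to between 24603.9 and 26259.3. Of these markers 4 rose and 1, GPA33, fell with the shRNA (adjusted p under 0.05 in limma). With dnTcf4 3 rose, GPA33 among them. Of 12 absorptive enterocyte markers 6 were below the filter, among them ALPI and SI, the alkaline phosphatase and sucrase of the brush border, and APOA4. Summed over the 12 markers, signal ran from 1201.4 to 1282.7 in uninduced and 3953.4 to 5246.3 in induced shRNA arrays, and from 673.9 to 729.1 and 1264.1 to 1443.2 in the dnTcf4 line. In each induction 4 of the 6 tested markers rose and 1, the glucose transporter SLC5A1, fell (adjusted p under 0.05 in limma). Of all tested probe sets 25.1% passed in either direction with the shRNA and 26.1% with dnTcf4. DPP4, KRT20 and MTTP rose in both lines, while CA1 passed only with the shRNA and VIL1 only with dnTcf4. KRT20, a keratin of surface cells, made up most of the rise in the shRNA line, from 24.5 to 2476.5 (geometric means), and SLC5A1 went from 236.1 to 95.4 there and from 43.0 to 13.2 with dnTcf4. The goblet cell list moved as well, from between 1417.2 and 1647.7 to between 4552.0 and 5425.6 with the shRNA, and from between 1006.3 and 1548.0 to between 3251.8 and 4107.9 with dnTcf4. In bulk RNA more cells of a type and more RNA per cell cannot be told apart. Of 5 adipocyte genes ADIPOQ, LEP, FABP4 and PLIN1 were below the filter, with geometric mean signals under 10.2 in every group, and CFD (complement factor D) was above it, at 162.3 to 292.1 over the arrays. CFD passed in neither induction, and the list summed to between 169.9 and 308.3. Its sums overlapped in the shRNA line, but rose from between 169.9 and 232.4 to between 248.4 and 280.0 with dnTcf4. Of the other lists, 3 of 6 hepatocyte, 3 of 6 fibroblast and 1 of 4 paired leukocyte markers were above the filter, with sums of at most 172.0, 191.3 and 47.4. The hepatocyte sum rose from between 112.1 and 123.6 to between 152.3 and 172.0 with the shRNA. The fibroblast sum rose from between 94.3 and 116.8 to between 165.5 and 191.3 with dnTcf4. Uninduced and induced sums of the hepatocyte, fibroblast and leukocyte lists otherwise overlapped. SERPINA1 of the hepatocyte list and LUM of the fibroblast list passed as higher in both inductions.

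FABP1 rose in both lines and ACSL5 fell in 1 and rose in the other, and these 2 genes had the largest changes among the 8 tested members. The bases around annotated starts of these genes are shown here because the 2 genes act in the same pathway and parted in the shRNA line. Each run holds 250 bases before and 50 after a start, 5′ to 3′ on the gene's strand, from RefSeq on GRCh38.p14, and capitals mark motif matches. FABP1 has 1 annotated start window, at chr2:88128013-88128312 on the minus strand, and ACSL5 has 2, at chr10:112375018-112375317 and chr10:112375955-112376254 on the plus strand. The span of ACSL5 begins further upstream, at 112374116, and the bases around that position are not shown.
FABP1: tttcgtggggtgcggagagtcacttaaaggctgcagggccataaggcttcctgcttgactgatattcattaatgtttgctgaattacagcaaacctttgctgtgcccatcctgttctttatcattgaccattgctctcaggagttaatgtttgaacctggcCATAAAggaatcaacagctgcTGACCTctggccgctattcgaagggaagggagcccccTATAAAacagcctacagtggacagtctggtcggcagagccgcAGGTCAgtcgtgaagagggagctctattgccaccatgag
ACSL5 upstream start: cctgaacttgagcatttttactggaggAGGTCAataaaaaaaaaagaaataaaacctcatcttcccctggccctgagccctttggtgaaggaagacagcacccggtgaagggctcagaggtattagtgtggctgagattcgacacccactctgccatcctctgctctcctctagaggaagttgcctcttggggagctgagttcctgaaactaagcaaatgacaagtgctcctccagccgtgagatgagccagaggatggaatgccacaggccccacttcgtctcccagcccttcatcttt
ACSL5 downstream start: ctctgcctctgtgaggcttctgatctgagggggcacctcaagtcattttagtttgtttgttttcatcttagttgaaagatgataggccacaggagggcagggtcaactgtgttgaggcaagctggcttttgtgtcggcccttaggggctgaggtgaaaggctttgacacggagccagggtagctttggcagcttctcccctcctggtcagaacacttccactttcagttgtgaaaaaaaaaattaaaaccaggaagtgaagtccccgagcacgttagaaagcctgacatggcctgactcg

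A total of 7 short motifs were searched on both strands, and no match overlapped another in the printed windows. Factors of the TCF/LEF family, the partners of β-catenin, were represented by CTTTGAT and by its variant CTTTGAA. The intestinal CDX homeobox factors were represented by TTTATG. Nuclear receptors were represented by AAGTCCA for HNF4 and by AGGTCA for a single arm of the direct repeat that PPAR and HNF4 bind. The remaining motifs were AGATAA for GATA factors and TATAAA for the TATA box. The FABP1 window held 3 of them: the CDX motif at -89 to -84, the direct-repeat arm at -68 to -63 and at 12 to 17, and the TATA box at -31 to -26. Among all 35116 start windows in the table these occur in 10.6%, 13.8% and 11.5%, respectively. The upstream ACSL5 window held the direct-repeat arm at -223 to -218, and the downstream window held none of the 7. No printed window of either gene held CTTTGAT, present in 2.62% of windows, or CTTTGAA, present in 4.43%. Bases at the upstream end of the ACSL5 span lie outside its windows and were not searched. ACSL1 had CTTTGAA at -149 to -143 in 1 of its 5 windows, and no window of FABP2, ACSL3, ACSL4, CIDEB, CIDEC or PLIN2 held either sequence. FABP5 has no window in the table and was not searched. These are matches of letters, and whether a factor binds there was not measured.

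**Figure D1:**
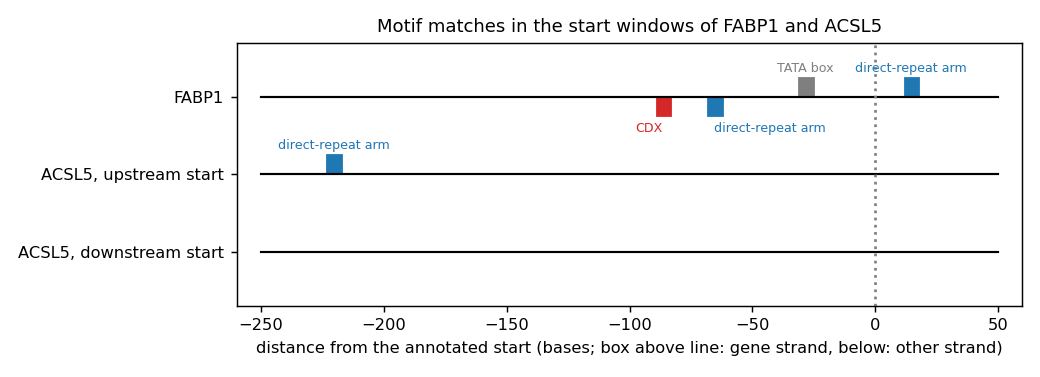
Matches of the searched motifs along the start windows of FABP1 and ACSL5, plotted by distance in bases from the annotated start. Boxes above a line are on the gene's strand and boxes below it on the other strand. FABP1 carries 4 matches of 3 motifs, the upstream ACSL5 window 1 and the downstream window none.

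Of the 8 member genes tested, each read at its brightest probe set, 4 rose and 2 fell with the β-catenin shRNA, where 25.1% of all 27280 tested probe sets were called (3325 higher and 3528 lower). With dnTcf4 5 rose and 1 fell, where 26.1% were called (3268 higher and 3857 lower). A call is an adjusted p under 0.05 in limma's moderated test, adjusted by Benjamini and Hochberg over all tested probe sets. When only the brightest probe set of each gene was fitted, 4217 (shRNA) and 4455 (dnTcf4) of 12386 genes were called. That is a larger share than over all probe sets. The median log2 change of the 8 genes was 0.57 with the shRNA and 0.67 with dnTcf4, against 0.01 and -0.04 over all tested probe sets. The genes were listed with earlier results of these data known, so these counts describe them and carry no test of the group.

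**Figure D2:**
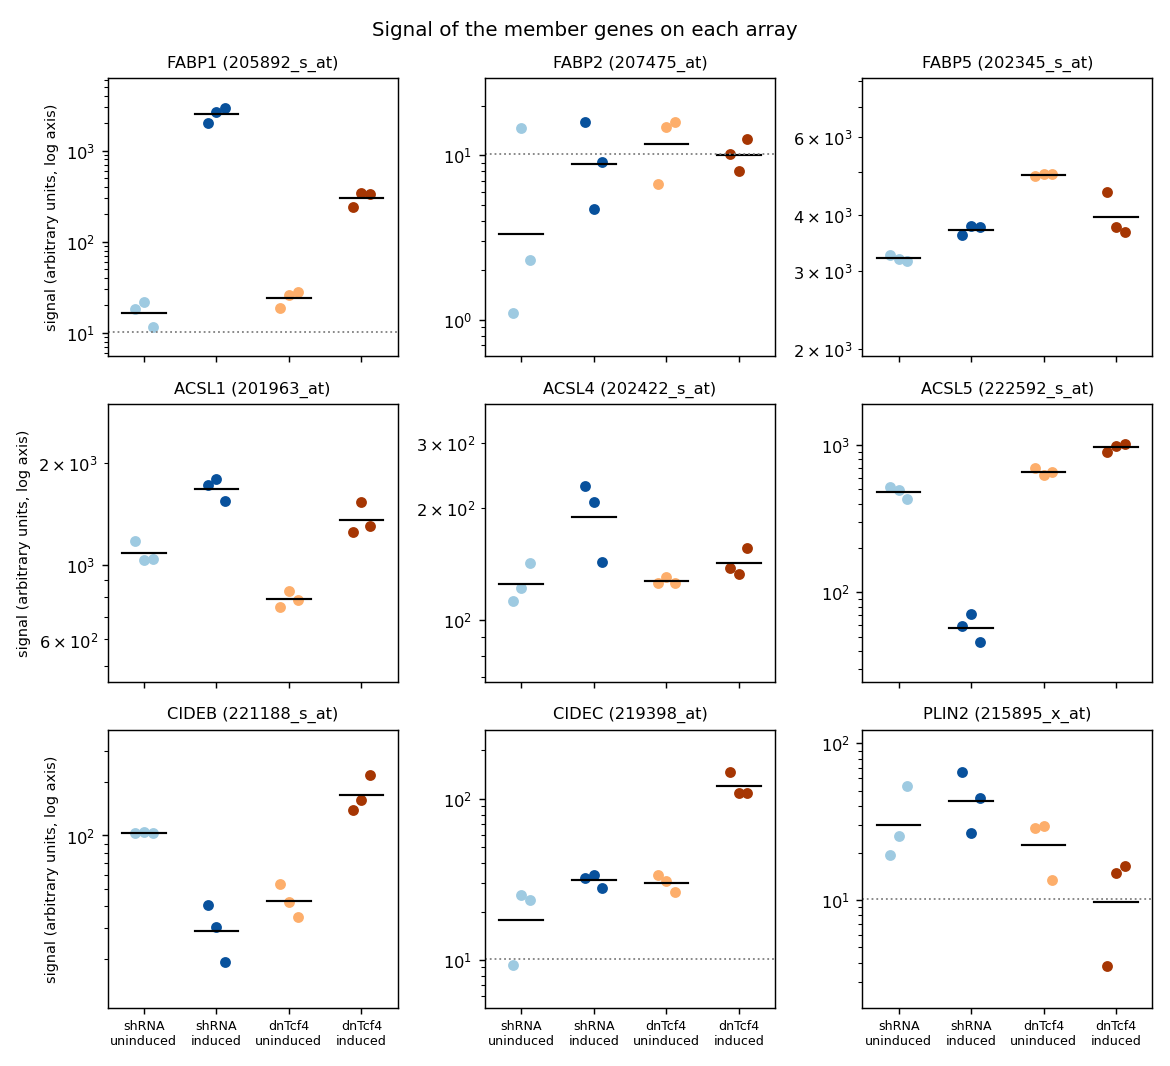
Signal of 9 member genes on each of the 12 arrays, on a log axis in arbitrary units, with 3 points per group, the geometric mean as a bar and the filter at 10.2 as a dotted line where it falls in range. FABP1 rises in both induced groups, while ACSL5 and CIDEB drop in the induced shRNA arrays and rise in the induced dnTcf4 arrays.

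FABP1, the liver-type fatty acid binding protein that is abundant in small intestinal enterocytes, had the largest change of the 8 tested genes. In the shRNA line its brighter probe set (205892_s_at) read 18.3, 21.6 and 11.7 on the uninduced arrays and 2018.4, 2660.2 and 2941.2 on the induced arrays. In the dnTcf4 line it read 18.7, 26.3 and 28.4 before and 240.9, 346.6 and 338.6 after induction. Every induced array was therefore above every uninduced array of either line, and the lowest induced shRNA array was above the highest dnTcf4 array.

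These values amount to a log2 change of 7.23 ± 0.23 (SE; adjusted p = 3.28e-12, limma), a 151-fold rise from 17.2 ± 5.04 to 2540 ± 473 (mean ± SD, n = 3), with the shRNA. With dnTcf4 the change was 3.66 ± 0.23 (adjusted p = 1.75e-08, limma), a 12.6-fold rise from 24.5 ± 5.10 to 308.7 ± 58.9. The rise was 11.9-fold larger in the shRNA line (difference of log2 changes 3.57 ± 0.33, adjusted p = 3.94e-06, limma). The uninduced signals, from 11.7 to 28.4 over both lines, lay not far above the filter of 10.2, and no detection calls were used. The sizes of these folds therefore rest on low uninduced readings. Before induction the lines did not differ past the threshold (0.53 in log2, 95% interval 0.04 to 1.02, adjusted p = 0.0998 in limma), so the order of levels was shRNA induced, dnTcf4 induced and then both uninduced groups. The comparison of the uninduced lines passed, at 0.71 and 0.72, without dnTcf4 uninduced array 1 or shRNA uninduced array 2.

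The other FABP1 probe set (231693_at) was dimmer and reached the filter only through its induced arrays. It read 1.5, 3.6 and 15.2 before and 48.7, 41.5 and 56.7 after induction of the shRNA, and 2.5, 8.8 and 1.8 before and 15.5, 15.2 and 19.2 after induction of dnTcf4. Its arrays did not overlap in either induction. Because it passed only through the groups where it was high, and reached the filter in 5 of 12 fits that left out 1 array, it is given by its values and supports no call.

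FABP2, the intestinal fatty acid binding protein, stayed near the lower end of the scale. Its probe set read 1.1, 14.6 and 2.3 in uninduced and 15.9, 4.7 and 9.1 in induced shRNA arrays, and 6.7, 14.9 and 16.0 in uninduced and 10.2, 8.0 and 12.6 in induced dnTcf4 arrays. All groups overlapped, and the highest of the 12 values was 16.0. A rise like that of FABP1 was not seen at this probe set, whose signals give no order among the groups.

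FABP5, the epidermal-type fatty acid binding protein, was bright everywhere and changed little. It read 3255.9, 3182.3 and 3154.8 uninduced and 3608.8, 3775.1 and 3755.1 induced in the shRNA line, against 4901.5, 4960.5 and 4948.3 uninduced and 4513.5, 3759.7 and 3664.2 induced in the dnTcf4 line. Groups did not overlap within either line, and the uninduced dnTcf4 arrays were the highest of all. The log2 change was -0.32 ± 0.07 with dnTcf4 (adjusted p = 0.0046) and 0.22 ± 0.07 with the shRNA (adjusted p = 0.0446, both limma).

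The shRNA call for FABP5 was lost in 6 of 10 alternative settings, with adjusted p-values up to 0.31 (each array centred on its median), and in 9 of 12 fits that left out 1 array, those without an induced dnTcf4 array being the exceptions. The difference between the 2 changes was 0.53 ± 0.11 (adjusted p = 0.0035, and 0.0521 with median centring, limma). Before induction FABP5 was 1.54-fold higher in the dnTcf4 line (0.63 ± 0.07), and after induction the lines were at 3713 ± 90.8 and 3979 ± 465, which overlapped (0.09 in log2, 95% interval -0.06 to 0.25, but 0.29 and called with quantile normalization). RefSeq lists 15 FABP5 pseudogenes, and the suffix of the probe set (202345_s_at) marks sets that can match several transcripts, so its signal may include related RNA. The same suffix is on probe sets of FABP1 (205892_s_at), ACSL1 (207275_s_at), ACSL4 (202422_s_at), CIDEB (221188_s_at) and ACSL5 (222592_s_at and 218322_s_at).

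The acyl-CoA synthetases followed separate courses. ACSL5, the synthetase of the intestinal mucosa that is found on mitochondria and endoplasmic reticulum, read 518.3, 496.3 and 432.6 before and 58.7, 70.8 and 45.9 after induction of the shRNA (222592_s_at). In the dnTcf4 line it read 703.8, 626.9 and 652.9 before and 903.2, 983.6 and 1016.2 after. The induced shRNA arrays were the lowest of all and the induced dnTcf4 arrays the highest, with no overlap between any of the 4 groups.

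The log2 change of ACSL5 was -3.06 ± 0.14 with the shRNA (8.36-fold lower, adjusted p = 1.79e-10) and 0.55 ± 0.14 with dnTcf4 (1.46-fold higher, adjusted p = 0.0066), and the changes differed by -3.61 ± 0.19 (adjusted p = 6.29e-09, all limma). A second probe set (218322_s_at) also fell with the shRNA, by 2.33 ± 0.12, from 279.8 ± 26.6 to 55.9 ± 6.92. With dnTcf4 that probe set went from 529.2 ± 26.7 to 607.3 ± 54.7, a change of 0.20 (95% interval -0.06 to 0.45) that did not pass (adjusted p = 0.275, limma). The fall in the shRNA line was thus seen at both probe sets, whereas the smaller rise in the dnTcf4 line was called at 1 of 2. Uninduced dnTcf4 cells had more ACSL5 signal than uninduced shRNA cells, by 0.46 ± 0.14 and 0.92 ± 0.12 at the 2 probe sets. The former call was lost without dnTcf4 uninduced array 1 (0.41) or shRNA uninduced array 3 (0.38), and without a variance trend (adjusted p = 0.0526, limma).

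ACSL1, a synthetase on the outer mitochondrial membrane and endoplasmic reticulum that many tissues use for fat storage and oxidation, rose in both lines. Its brighter probe set (201963_at) read 1174.1, 1033.9 and 1037.3 before and 1724.0, 1792.1 and 1542.3 after induction of the shRNA, and 749.9, 834.9 and 786.8 before and 1252.0, 1538.0 and 1306.0 after induction of dnTcf4. Induced arrays were above uninduced arrays of the same line without overlap. The log2 changes were 0.64 ± 0.10 (1.56-fold, adjusted p = 1.11e-04) and 0.78 ± 0.10 (1.72-fold, adjusted p = 1.64e-05, limma), and at the other probe set 0.59 ± 0.10 and 0.69 ± 0.10.

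The 2 changes of ACSL1 were not told apart (difference -0.14, 95% interval -0.43 to 0.14, adjusted p = 0.572, limma). Its level before induction was lower in the dnTcf4 line, by 0.45 ± 0.10, and by 0.57 ± 0.10 at the other probe set. Centring arrays on their medians shifts all probe sets by 0.11 between the uninduced lines and by 0.16 between the induced lines. With it the former difference was -0.34 (adjusted p = 0.0561), and that between the induced lines moved from -0.31 to -0.15 (adjusted p = 0.377, limma). The latter was also lost without a variance trend and without dnTcf4 induced array 1 (-0.25) or 3 (-0.28) or shRNA induced array 1 (-0.29) or 2 (-0.26).

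ACSL4, the synthetase with a preference for arachidonic acid, read 112.7, 121.6 and 142.4 before and 230.6, 208.5 and 143.0 after induction of the shRNA at its brightest probe set (202422_s_at). In the dnTcf4 line it read 125.9, 130.7 and 125.5 before and 138.3, 133 and 155.9 after. Induced shRNA array 3, at 143.0, lay next to the highest uninduced array, at 142.4, while the other 2 were well above it. The change of 0.61 ± 0.16 passed with the shRNA (adjusted p = 0.0122), but not without shRNA induced array 1 (0.47) or uninduced array 1 (0.53). With dnTcf4 it was 0.16 (95% interval -0.19 to 0.51, adjusted p = 0.552, limma). The 2 changes differed by 0.45 (adjusted p = 0.257), and the induced dnTcf4 cells were at -0.42 against the induced shRNA cells (adjusted p = 0.0536, limma). Both passed without shRNA induced array 3, at 0.65 and -0.63. The comparison of the induced lines also passed with quantile normalization (adjusted p = 0.0373), the stricter filter (0.0393) and 1 probe set per gene (0.0412), and without shRNA uninduced array 3 (0.0493, all limma). A second probe set (1557418_at) was near the filter, with values from 5.5 to 19.7 and no call, and the third (1557419_a_at) lay below it, with a median of 2.4.

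**Figure D3:**
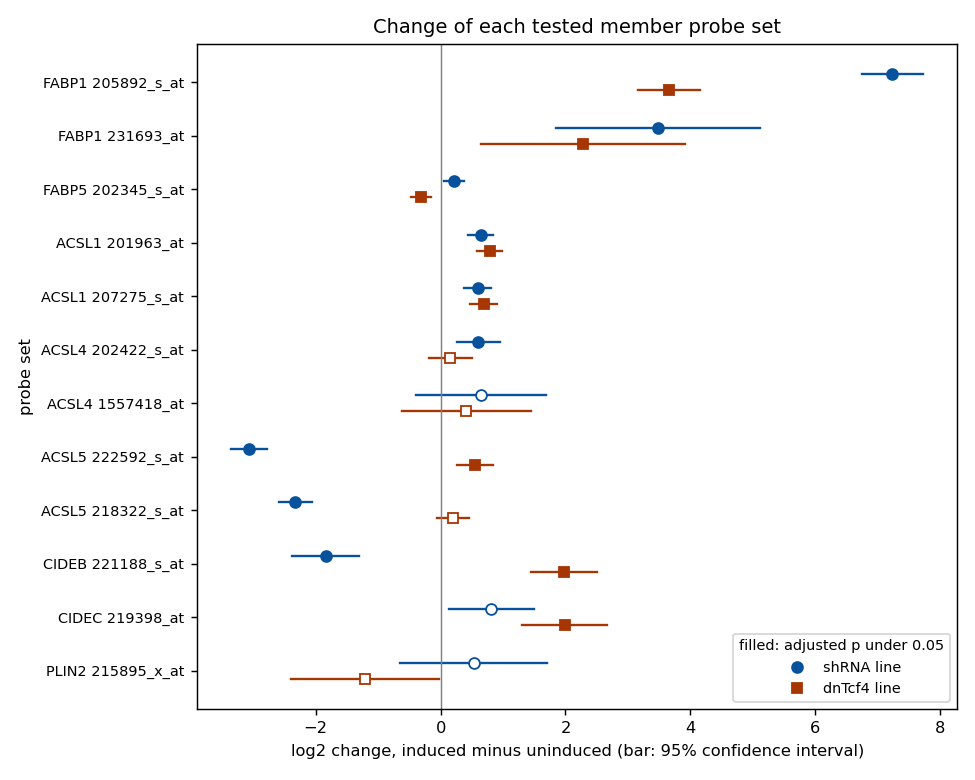
Log2 change, induced minus uninduced, of the 12 tested member probe sets in the shRNA line (circles) and the dnTcf4 line (squares), with 95% confidence intervals. Filled symbols passed an adjusted p under 0.05, and 231693_at of FABP1 reached the filter only through its induced arrays. Within a line, probe sets of the same gene lie on the same side of 0, while ACSL5, CIDEB, FABP5 and PLIN2 lie on opposite sides in the 2 lines.

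Of the droplet proteins, CIDEB had the largest difference between the lines. This protein, of the CIDE family, enlarges lipid droplets and lipidates lipoproteins in liver and intestine. Its probe set read 103.1, 104.3 and 103.0 before and 40.7, 30.6 and 19.3 after induction of the shRNA. In the dnTcf4 line it read 53.4, 42.3 and 34.8 before and 138.4, 159.1 and 218.0 after. All 3 arrays moved down in 1 line and up in the other, without overlap.

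The log2 changes of CIDEB were -1.84 ± 0.25 (3.59-fold lower, adjusted p = 4.86e-05) and 1.98 ± 0.25 (3.94-fold higher, adjusted p = 2.54e-05), and they differed by -3.82 ± 0.36 (adjusted p = 4.66e-06, all limma). Before induction CIDEB was lower in the dnTcf4 line by 1.27 ± 0.25 (adjusted p = 0.0011, limma). The order of levels was dnTcf4 induced, shRNA uninduced, dnTcf4 uninduced and shRNA induced, of which the last 2 overlapped (0.57 apart, adjusted p = 0.0817, limma). CIDEB is covered by 1 probe set (221188_s_at), and its span on GRCh38.p14 (chromosome 14, 24305187 to 24311435) overlaps the genes NOP9 and LTB4R2, so RNA from those genes and from CIDEB cannot be told apart where the probes fall in shared sequence. Spans of ACSL1 (SLED1 and LOC105377587), ACSL4 (LOC105373311), ACSL5 (ZDHHC6) and FABP5 (LNMICC) also overlap other genes.

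CIDEC, the family member that fuses droplets in fat cells, read 33.7, 31.1 and 26.3 before and 145.9, 108.4 and 109.5 after induction of dnTcf4, a 3.98-fold rise (1.99 ± 0.32, adjusted p = 2.21e-04, limma). In the shRNA line it read 9.3, 25.4 and 23.7 before and 32.1, 33.9 and 28.0 after. The shRNA arrays did not overlap either, yet the change of 0.81 ± 0.32 missed the threshold (adjusted p = 0.076, limma), and uninduced array 1 stood apart at 9.3. It passed without shRNA uninduced array 2 (1.07) or 3 (1.02), as did the comparison of the uninduced lines (0.77 in the full fit, adjusted p = 0.0864, limma). Without shRNA uninduced array 1, the outlying one, the change was only 0.35 and the difference between the uninduced lines 0.30. The changes in the 2 lines did not differ past the threshold (-1.18, 95% interval -2.14 to -0.22, adjusted p = 0.112), except without shRNA uninduced array 1 (-1.64, adjusted p = 0.0043, limma). After induction CIDEC was 3.84-fold higher in the dnTcf4 line. All these readings come from its only probe set (219398_at), and RefSeq lists 1 CIDEC pseudogene, so the signal may include related RNA.

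PLIN2, the perilipin that coats droplets in most cell types and is stabilised by stored lipid, was read by 2 dim probe sets. The tested one (215895_x_at) read 19.5, 25.6 and 53.7 before and 66, 27 and 45 after induction of the shRNA, and 28.7, 29.9 and 13.5 before and 3.8, 15 and 16.4 after induction of dnTcf4. Arrays overlapped in both lines and neither change passed (0.53, 95% interval -0.65 to 1.71, and -1.21, 95% interval -2.39 to -0.03). The other (209122_at), under the filter, read 2.0, 1.9 and 2.5 before and 29.3, 23.5 and 16.9 after induction of the shRNA, without overlap. In the dnTcf4 line it read 22.2, 3.1 and 4.3 before and 25.9, 25.3 and 14.9 after, with overlap. In a fit of all probe sets without a filter its shRNA change was 3.42 ± 0.72 (adjusted p = 0.0038, limma) and its dnTcf4 change 1.68 ± 0.72 (adjusted p = 0.186). The former rests on uninduced signals close to the floor of 1. In the same fit the FABP2 probe set and 1557419_a_at of ACSL4 passed in neither line (adjusted p of at least 0.416, limma). In the dnTcf4 line the 2 estimates thus had opposite signs, but neither passed, so no direction of PLIN2 RNA is given there.

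**Figure D4:**
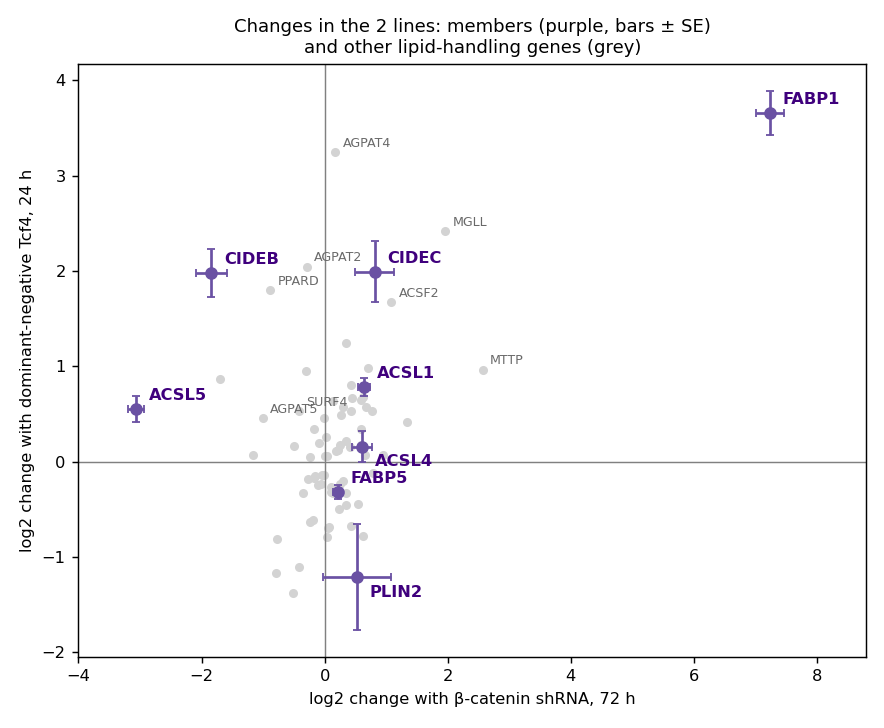
Log2 change with dnTcf4 at 24 h (vertical) against log2 change with the β-catenin shRNA at 72 h (horizontal), for the 8 tested member genes (purple, bars are SE) and other lipid-handling genes (grey, some named). ACSL5 and CIDEB lie in the upper left, as do PPARD, AGPAT5 and SURF4, whose changes were also called in both lines, and FABP1 lies furthest to the upper right, beyond MGLL, MTTP, CIDEC and ACSF2.

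Changes of opposite sign that were called in both lines were found for 3 of the 8 genes, ACSL5, CIDEB and FABP5, where 0.986% of all tested probe sets showed them. ACSL5 and CIDEB were lower with the shRNA and higher with dnTcf4, as were 0.436% of probe sets, and FABP5 went the other way with the doubtful shRNA call given above. The difference of the 2 changes itself was called for 4 of the 8 genes (FABP1, FABP5, ACSL5 and CIDEB), against 11.9% of all tested probe sets. The shares so far in this paragraph are over all probe sets. Those at 1 probe set per gene, as the 8 genes are read, are not given here and may be larger. In the uninduced lines 4 of 8 genes differed (29.5% of probe sets), FABP5 and ACSL5 being higher and ACSL1 and CIDEB lower in the dnTcf4 line. Fitted at 1 probe set per gene, 4625 of 12386 genes differed there. After induction 6 of 8 differed (39.6% of probe sets, and 5940 of 12386 genes fitted at 1 probe set each). ACSL5 was 16.8-fold, CIDEB 5.85-fold and CIDEC 3.84-fold higher with dnTcf4, FABP1 was 8.24-fold higher with the shRNA, and ACSL1 was also higher with the shRNA. PLIN2 was called higher with the shRNA at its tested probe set, but its other probe set read 23.23 ± 6.20 and 22.03 ± 6.18 in the induced shRNA and dnTcf4 arrays, which overlapped.

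The genes whose pattern was most like that of a member were sought among 12378 other genes, by Pearson correlation of log2 signal over the 12 arrays. The arrays form 4 groups, so these values mostly compare 4 group means and are given as a description. For FABP1 the closest were SPRED1 (r = 0.983), MGAT2 (0.982; here the Golgi enzyme of N-glycan synthesis) and SMIM14 (0.979), which rose in both lines by less than FABP1 did. SMIM14 went from 641 to 2095 with the shRNA and from 552.6 to 1181 with dnTcf4 (geometric means). For ACSL5 they were MORF4L2 (0.993), AP1G1 (0.989) and TNFRSF10B (0.981). MORF4L2 went from 3791 to 1925 and from 3972 to 4477. For CIDEB they were EXOC6B (0.953), PTPRE (0.937) and UNC5B (0.935), and for CIDEC MIER3 (0.973), GNA13 (0.971) and EPHA2 (0.971). Of the pairs of members, only ACSL1 and FABP1 correlated above 0.8 (r = 0.868).

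Other genes of the same pathways were read from 6 lists, each gene at its brightest probe set. Their counts stand beside the 25.1% of all tested probe sets called with the shRNA and the 26.1% called with dnTcf4, and no difference between lists was tested. Fitted at 1 probe set per gene, as the lists are read, 4217 and 4455 of 12386 genes were called. In fatty acid binding and uptake 12 of 18 genes were tested, and 4 rose and 3 fell with the shRNA while 2 rose and 5 fell with dnTcf4 (medians 0.04 and -0.18). ACBD3, an acyl-CoA binding protein of the Golgi, rose in both, by 0.71 and 0.99, though its dimmer probe set passed in neither line. SLC27A5, an acyl-CoA synthetase for bile acids and very long chains, fell in both, by 0.41 and by 1.10. SCARB1, the high-density lipoprotein receptor, fell with dnTcf4 by 0.79 and had a change of 0.05 with the shRNA (adjusted p = 0.832, limma). ACBD5, a peroxisomal acyl-CoA binding protein, rose by 0.79 with the shRNA (0.55 at its dimmer probe set, adjusted p = 0.108, limma), and CRABP2, a retinoic acid binding protein of the FABP family, fell by 1.16 there. FABP6, the ileal bile acid binding protein, rose with the shRNA by 0.54 and fell with dnTcf4 by 0.44, the same directions as FABP5. The uptake receptor CD36 and the binding proteins FABP3, FABP4 and FABP7 lay below the filter.

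Among enzymes that make or split acyl-CoA, 12 of 16 were tested, of which 3 rose with the shRNA and 2 rose and 1 fell with dnTcf4 (medians 0.24 and -0.04), a share near that over all probe sets in both lines. ACSF2, a mitochondrial medium-chain acyl-CoA synthetase, rose in both, by 1.09 and 1.67. ACSS2, the cytosolic acetyl-CoA synthetase, rose with dnTcf4 by 1.24 and had a change of 0.34 with the shRNA (adjusted p = 0.271, limma). ACOT8, a peroxisomal thioesterase, rose with the shRNA by 0.95, with 0.17 at its dimmer probe set (adjusted p = 0.72, limma). AACS, which activates acetoacetate, rose by 0.35 with the shRNA and fell by 0.33 with dnTcf4.

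In triacylglycerol synthesis, of 12 tested genes 6 rose and 3 fell with dnTcf4, and 1 rose and 2 fell with the shRNA (medians 0.46 and -0.03). The 9 calls with dnTcf4 became 6 to 9 when 1 array was left out. AGPAT2, which acylates lysophosphatidic acid, rose 4.12-fold with dnTcf4, from 355 to 1464, and by 2.39 at its other probe set, with a change of -0.29 (adjusted p = 0.06, limma) with the shRNA. AGPAT4, of the same enzyme family, read 9.93 before and 94.2 after induction of dnTcf4 and 7.10 and 7.998 in the shRNA line (geometric means). It reached the filter only through the induced dnTcf4 arrays, so its count among the 6 follows from that choice. AGPAT5, a mitochondrial acyltransferase, fell by 1.003 with the shRNA and rose by 0.454 with dnTcf4, the directions of ACSL5 and CIDEB, though its dimmer probe set passed in neither line. DGAT1 and DGAT2, which catalyse the last step, parted: DGAT1 rose by 0.67 and 0.57, and DGAT2 fell by 0.51 and by 1.38. MOGAT2, of the monoacylglycerol pathway of enterocytes, lay below the filter.

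Of 12 tested droplet coat and lipolysis genes 4 rose and 2 fell with the shRNA, and 4 rose and 1 fell with dnTcf4 (medians 0.04 and 0.10). MGLL, monoacylglycerol lipase, rose by 1.96 ± 0.19 and 2.42 ± 0.19, and at its other probe set by 2.25 and 3.40. HILPDA, a hypoxia-induced inhibitor of lipolysis, fell by 0.79 and by 1.17. LIPA, the lysosomal acid lipase, rose by 0.62 and 0.67. In chylomicron assembly 10 of 13 genes were tested, with 4 higher and 1 lower with the shRNA and 3 higher and 1 lower with dnTcf4 (medians 0.16 and 0.20). MTTP, which loads lipid onto apolipoprotein B, rose from 12.7 to 75.3 with the shRNA (2.57 ± 0.31) and from 10.9 to 21.3 with dnTcf4 (0.96 ± 0.31). SURF4, a cargo receptor for lipoprotein export, fell by 0.41 with the shRNA and rose by 0.53 with dnTcf4, with the same signs at all 3 of its probe sets. MIA3, which helps to export large cargo such as collagen and lipoproteins, rose by 0.59 with the shRNA, and PLAGL2, a zinc finger factor, fell by 0.70 with dnTcf4. Neither passed at its dimmer probe sets (0.42 and 0.13 for MIA3, -0.38 for PLAGL2). The apolipoproteins APOB, APOA4 and APOC3 lay below the filter.

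**Figure D5:**
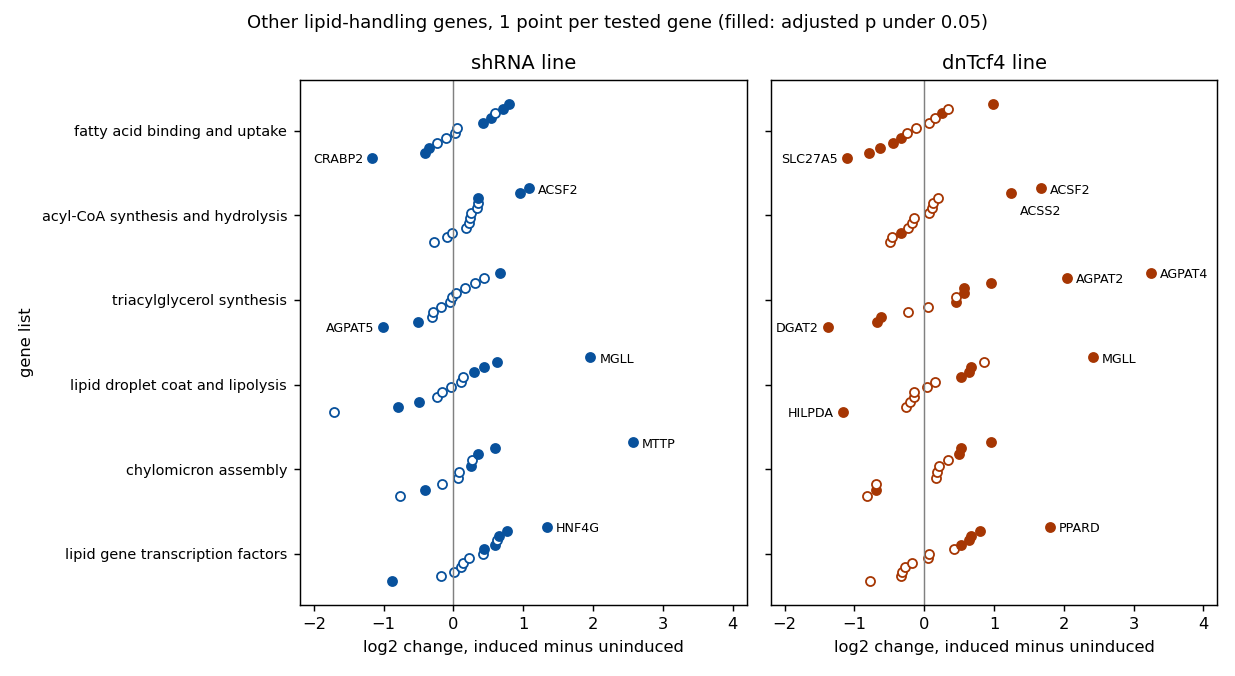
Log2 change, induced minus uninduced, of each tested gene in 6 lists of lipid-handling genes, in the shRNA line (left) and the dnTcf4 line (right). Filled points passed an adjusted p under 0.05, and called genes with at least a 2-fold change are named. MGLL lies to the right in both lines, MTTP is the rightmost point in the shRNA line and AGPAT4 in the dnTcf4 line.

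Among transcription factors known to act on such genes, 13 of 21 were tested, with 5 higher and 1 lower with the shRNA and 5 higher with dnTcf4 (medians 0.42 and 0.07). PPARD, a fatty acid-activated nuclear receptor, fell from 252 to 137 with the shRNA (-0.88 ± 0.12) and rose from 239.5 to 832.7 with dnTcf4 (1.80 ± 0.12). The 2 changes had the signs of those of ACSL5 and CIDEB and differed by -2.68 (adjusted p = 7.43e-08, limma). Of its other tested probe sets, 1 rose by 1.16 with dnTcf4 without a call in the shRNA line (-0.48, adjusted p = 0.373), and 1 passed in neither (0.45 and 0.30). PPARG rose in both, by 0.44 and 0.66. PPARA rose with dnTcf4 by 0.80 and had a change of 0.42 with the shRNA (adjusted p = 0.0775, limma), where the next brightest of its 8 tested probe sets was called (0.50, adjusted p = 0.021, limma). HNF4G, a nuclear receptor of enterocytes, rose by 1.34 with the shRNA (0.83 at its dimmer probe set, adjusted p = 0.0553, limma), and NR1H3, the liver X receptor alpha, rose by 0.76 and 0.53. CDX2, the intestinal homeobox factor, did not pass in either line (0.22 and -0.27).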

How the data were processed

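Total RNA of 12 samples was measured on Affymetrix U133 Plus 2.0 arrays. The deposited value is 1 intensity per probe set and array, a linear signal in arbitrary units that the authors made with MAS5 and GCOS, per the submitters' processing notes, with versions not given in the sources used here. After trimming to the middle 96% of probe sets, each array had a mean of 100.0. No further normalisation was applied. Signals under 1 were set to 1 and taken as log2, and the 27280 non-control probe sets with a mean log2 at or above the median over all (3.35) were fitted with 4 group means in limma 3.58.1 (R 4.3.3, moderated variances with a trend), two-sided, with Benjamini-Hochberg adjustment over all tested probe sets within each of 5 contrasts. Intervals are 95%. The number of arrays, 3 per group, limits the precision. Genes were named through the platform table (41091 probe sets with 1 symbol) and read at their brightest probe set. Beside every member, the text names from each list and induction up to 3 called genes with the largest change whose arrays did not overlap, list genes called with opposite signs, the 3 genes most like each member that was called with at least a 2-fold change, and markers. Members and lists were chosen with earlier results of these data known. The code was tested on simulated data. Alternatives covered normalisation, an added offset, the filter, 1 probe set per gene, the variance model, array weights, the arrays fitted, a replicate block and leaving out each of the 12 arrays.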

Additional observations from a re-analysis of the deposited data

Results flagged for a closer look

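In each of the following genes the change with the β-catenin shRNA differed from the change with dnTcf4 by a test of the difference itself (limma, adjusted p under 0.05). Values are shRNA log2 change minus dnTcf4 log2 change, and line, construct and time cannot be told apart behind any of them. Among the binding proteins the difference was 3.57 for FABP1 and 0.53 for FABP5. It was -3.61 and -2.52 at the 2 probe sets of ACSL5 and -3.82 for CIDEB.

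Among other genes of fatty acid binding and uptake it was 0.98 for FABP6, 0.90 for ACBD5, 0.84 for SCARB1, 0.69 for SLC27A5 and -1.23 for CRABP2. Of the enzymes that make or split acyl-CoA, AACS stood at 0.68 and ACOT8 at 0.88. In triacylglycerol synthesis it was -2.33 for AGPAT2, -3.07 for AGPAT4 (which reached the filter only through its induced dnTcf4 arrays), -1.46 for AGPAT5 and 0.87 for DGAT2. In chylomicron assembly it was 1.61 for MTTP, -0.94 for SURF4 and 0.76 for PLAGL2. Of the transcription factors, PPARD stood at -2.68.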

How the results depend on the processing

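Member values were recomputed under 10 settings and with each of the 12 arrays left out: of 1228, 1169 kept direction and side of the threshold, 33 lost a call, 16 gained 1 and 10 changed sign. FABP1 with the shRNA stayed between 6.95 and 7.42, ACSL5 (222592_s_at) between -3.21 and -2.90 and the CIDEB difference between -4.07 and -3.53. Without 1 array, signs turned in comparisons that were not called: for dnTcf4 minus shRNA after induction, FABP5 ran from -2.37e-04 to 0.15 and ACSL4 (1557418_at) from -0.24 to 0.13. Before induction FABP1 (231693_at, tested in 5 of the 12) ran from -1.12 to 0.11, ACSL4 from -0.047 to 0.12 and -0.25 to 0.52 at its 2 probe sets, and PLIN2 from -0.71 to 0.018. The ACSL4 difference at 1557418_at ran from -0.20 to 0.58. Its induced comparison was 0.088 with quantile normalization and 0.10 with median centring. Median centring also left 3 chylomicron genes called with the shRNA, as did no variance trend. The stricter filter and 1 probe set per gene called 5 triacylglycerol genes with the shRNA. Fitting 1 probe set per gene, for 12386 genes, called 4217 (shRNA), 4455 (dnTcf4), 4625 (uninduced lines) and 5940 (induced lines). These are fewer calls but a larger share of the features tested. Without a variance trend 2147 differed in their change; the cause was not tested. Centring moved the share of calls that were higher in dnTcf4 from 48.3% to 63.4% between uninduced and from 48.0% to 62.6% between induced lines, and that of calls higher for the shRNA change from 50.2% to 39.7%.

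Deviations of same-numbered uninduced and induced arrays of a line correlated at -0.03 to 0.06, and those of differently numbered arrays at -0.04 to 0.07. The labels do not say whether the numbers pair arrays. These correlations cannot decide it, because with so few arrays per group a value near 0 does not exclude shared handling. Under the replicate block FABP5 with the shRNA stayed at 0.22 with an adjusted p of 0.0538 (limma).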
